A study of Saccharomyces cerevisiae with 21 samples.

Results

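Transcript signals of yeast cells 360 min after water was returned were compared with those of cells in the dry state. The comparison took the 3 arrays titled as 360 min of rehydration minus the 3 arrays titled as dry, 6 of the 21 arrays of the series, and was followed over all 9275 probe sets that are not chip controls. One gene is listed for 6504 of these, which stand for 5656 genes, and the genes are grouped here into 47 lists by function. The organism is Saccharomyces cerevisiae strain BY4743, a diploid laboratory strain derived from S288C that carries deletions of URA3, LEU2 and HIS3 in all samples. Cultures in YPD, which is rich in glucose and amino acids, reached an A600 of 0.8 at 30 °C and were then placed in 1:20 diluted YPD, 15 ml to a 9 cm glass dish, and dried at 22 to 25 °C in a unit that controls the atmosphere. The dry group had dried over 42 h and was then held for 72 h at 20% relative humidity. The 360 min group went through the same drying and hold, received 15 ml of 1:20 YPD per plate, and had the contents of 4 plates pooled in a flask. The labels do not say whether the 3 samples of a group came from separate cultures, so the p-values below measure only how far these samples spread, part of which may be technical.

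A dried yeast cell is close to metabolic rest, and the RNA in it was made before or during drying. Rehydrated yeast must restart transcription, translation and energy supply. In budding yeast, genes for ribosomal proteins are among the most strongly regulated by nutrients and growth rate, and genes of the general stress response, controlled by Msn2 and Msn4, usually move against them. Respiratory complexes are assembled from nuclear-encoded subunits and a few subunits encoded on the mitochondrial chromosome. Small nucleolar RNAs (snoRNAs) guide the modification and cutting of ribosomal RNA, and small nuclear RNAs (snRNAs) form the spliceosome.

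Changes are log2 differences, 360 min minus dry, ± SE from a limma fit over all 21 arrays, and p-values are limma's, adjusted by the Benjamini-Hochberg method over 9275 probe sets. A probe set is said to have risen or fallen at an adjusted p under 0.05. The spread is pooled over all 7 time points, so uneven arrays outside the comparison can keep a probe set from passing. RPP0, for one, read 1445, 1376 and 1476 when dry and 4039, 3684 and 3859 at 360 min but did not pass (adjusted p = 0.219). Its control arrays read 0.0, 153.6 and 151.2. Signals are the deposited intensities, scaled by the authors so that each array has nearly the same trimmed mean (500.2 to 500.6), and the 3 values given for a group are its replicates 1, 2 and 3. A change is thus a change in a transcript's part of the array's scaled signal. In RNA from whole cultures, fewer cells with a transcript and less of it per cell cannot be told apart. A signal of 29.6 was taken as background, and a gene with all 3 dry or all 3 rehydrated arrays no brighter than this has its change stated as a lower bound ("at least").

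Several array measures moved with the comparison, and their part in the results was not tested. The mean log2 signal of the 9 spike-in probe sets, bacterial and phage control transcripts whose step of addition the labels do not give, was 8.49 to 8.83 on the dry arrays and 10.66 to 10.77 at 360 min, 2.01 higher. The log2 ratio of the 3' to the 5' control probe set of ACT1 was 0.95 to 1.15 when dry and 2.28 to 2.37 at 360 min, that of SPT15 1.21 to 1.30 and 2.51 to 2.97, and that of SRB4, which moved least, 1.52 to 1.82 and 1.90 to 2.31. The 100 brightest probe sets held 8.80% to 11.8% of the signal of a dry array and 20.4% to 22.4% at 360 min, while the median signal was 183.9 to 200.1 and 131.0 to 132.5. All dry arrays were scanned on one day and all 360 min arrays on another, so scan day and time point cannot be told apart. ACT1, the actin gene often used as a reference, depended on the probe set: its gene probe set rose by 0.58 ± 0.09, and of its 3 chip controls the 5' one differed by -0.42, the middle one by 0.05 and the 3' one by 0.86. Of the genes deleted in the strain, URA3 was at background on all 6 arrays, LEU2 read 36.1, 38.2 and 17.7 when dry and 10.1, 9.5 and 20.0 at 360 min, and HIS3 read 111, 101 and 116 when dry and 238, 207 and 188 at 360 min. Of genes that a diploid should keep low, the pheromone receptors STE2 and STE3 read 23.8 to 69.8 over the 6 arrays and the protease BAR1 1.1 to 1.7, while the pheromone exporter STE6 read 82.9 to 174.

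**Figure D1:**
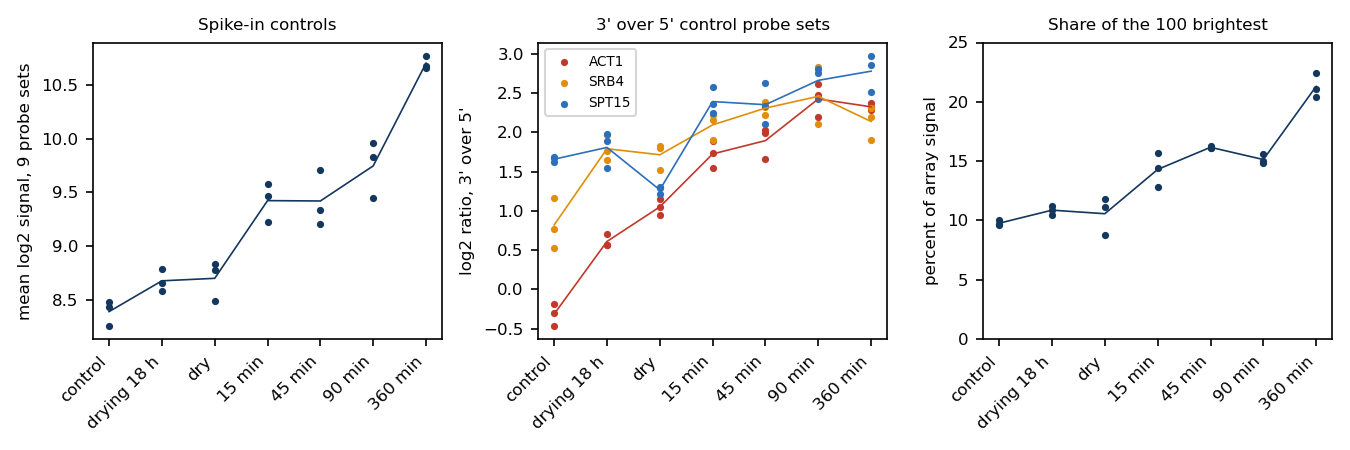
Array measures by time point, 1 point per array with a line through the means: the mean log2 signal of 9 spike-in probe sets (left), the log2 ratio of 3' to 5' control probe sets of ACT1, SRB4 and SPT15 (middle) and the percent of an array's signal held by its 100 brightest probe sets (right). Spike-in signals reached 10.66 to 10.77 at 360 min against 8.49 to 8.83 in the dry state, and the 100 brightest probe sets 20.4% to 22.4% against 8.80% to 11.8%.

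After 360 min of rehydration, 5743 of the 9275 probe sets (61.9%) had changed from the dry state. Of all probe sets 21.2% rose (1970) and 40.7% fell (3773), and 3520 of those that changed did so at least 2-fold, 1266 up and 2254 down. The 3 arrays of one group did not overlap the 3 of the other for 6335 probe sets (68.3%). The median over all probe sets was -0.29. Probe sets with 1 gene fell more often (3416 of 6504 fell, 1100 rose, median -0.56) than those with no gene listed (305 of 2443 fell, 689 rose, median 0.29), in counts that were not tested against each other.

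How the arrays are scaled sets the split between rises and falls. In the deposited scale 34.3% of the changed probe sets rose, with quantile normalization 46.4%, and with each array centred on its median 60%. Scaled to the spike-ins, 0.8% rose, 66 against 7993 that fell, and the median over all probe sets was -2.30. The medians over all probe sets were -0.03 with quantile normalization and 0.23 with median centring. Most lists hold protein genes, so their background is the 6319 probe sets with 1 protein-coding gene, of which 15.3% rose and 53.9% fell (median -0.59, -0.29 with quantile normalization, -0.07 with median centring and -2.60 with the spike-ins). A list whose shares lie near these is not set apart from protein genes as a whole, and where a list median changes sign under a scaling the value is given with it.

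RNAs that are not messenger RNAs and transcripts of the mitochondrial chromosome made up most of the largest rises among uniquely named probe sets, ranked with signals under the background raised to it. Of these 15, 5 were snoRNAs, 6 came from the mitochondrial chromosome, 1 was telomerase RNA, and the others were the messenger RNAs of HOR7, RPS26B and EXG2, the first 2 of which were at background on all dry arrays. Of the 54 probe sets that rose at least 8-fold in the fit, 20 have no gene listed.

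snoRNA probe sets rose almost throughout: 53 of 59 rose and 0 fell, with a median of 1.90 against -0.29 over all probe sets. Of the 53 without a suffix that marks possible cross-hybridization, 50 rose. These RNA classes were singled out after their values were seen. SNR61 (YNCL0041C), a box C/D RNA that guides methylation of ribosomal RNA, read 405, 877 and 793 on the dry arrays and 12541, 11509.5 and 10735 at 360 min, a change of 4.14 ± 0.40 (adjusted p = 1.85e-07). Every 360 min array was thus well above every dry array, although dry replicate 1 lay below the other dry arrays. SNR66 (YNCN0014W) read 124, 144 and 127 when dry and 2029, 1908 and 1699.9 at 360 min, a change of 3.83 ± 0.17 (adjusted p = 4.84e-11). SNR46 (YNCG0024W), a box H/ACA RNA that guides the conversion of uridine to pseudouridine, read 151, 190.2 and 162 and then 1670.0, 1565 and 1504, a change of 3.24 ± 0.25. The groups did not overlap for either. The rise of the snoRNA median began early: it was 0.66 at 15 min, 0.52 at 45 min and 1.18 at 90 min, each against the same dry arrays. From 90 to 360 min 28 snoRNA probe sets rose and 0 fell. Scaled to the spike-ins the snoRNA median turned to -0.11, with 9 rising and 16 falling, against -2.30 over all probe sets.

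Other stable RNAs moved the same way in the deposited scale. All 4 snRNA probe sets rose. SNR14 (YNCE0011C), the U4 RNA of the spliceosome, read 2977, 2778 and 2858 when dry and 12977, 13899 and 14585 at 360 min, a change of 2.27 ± 0.09 (adjusted p = 1.02e-11). SNR19 (YNCN0005C), the U1 RNA, changed by 2.14 ± 0.17, SNR7-L, a U5 RNA, by 2.46 and SNR6, the U6 RNA, by 1.25 ± 0.12, the last of which turned to -0.76 when scaled to the spike-ins. RPR1 (YNCE0007C), the RNA of ribonuclease P, which trims the 5' ends of transfer RNA precursors, read 3684, 3681 and 3617 when dry and 13264, 13973 and 15434 at 360 min, a change of 1.96 ± 0.14 (-0.05 when scaled to the spike-ins). Both probe sets of TLC1 (YNCB0010W), the template RNA of telomerase, rose, one by 3.06 ± 0.24 and the other by 1.84. No array of one group overlapped the other for these RNAs. Transfer RNA probe sets rose in 65 of 92 cases and fell in 1, with a median of 1.14, but 89 of the 92 carry a suffix for possible cross-hybridization, and scaled to the spike-ins 0 rose and 63 fell (median -0.86). The 6 ribosomal RNA probe sets, all with such a suffix, ran from -4.40 to 0.92, with 0 rising and 2 falling, so ribosomal RNA has no single direction here. Most of these RNAs lack a poly(A) tail, and the labels do not say how they entered the labelled sample.

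**Figure D2:**
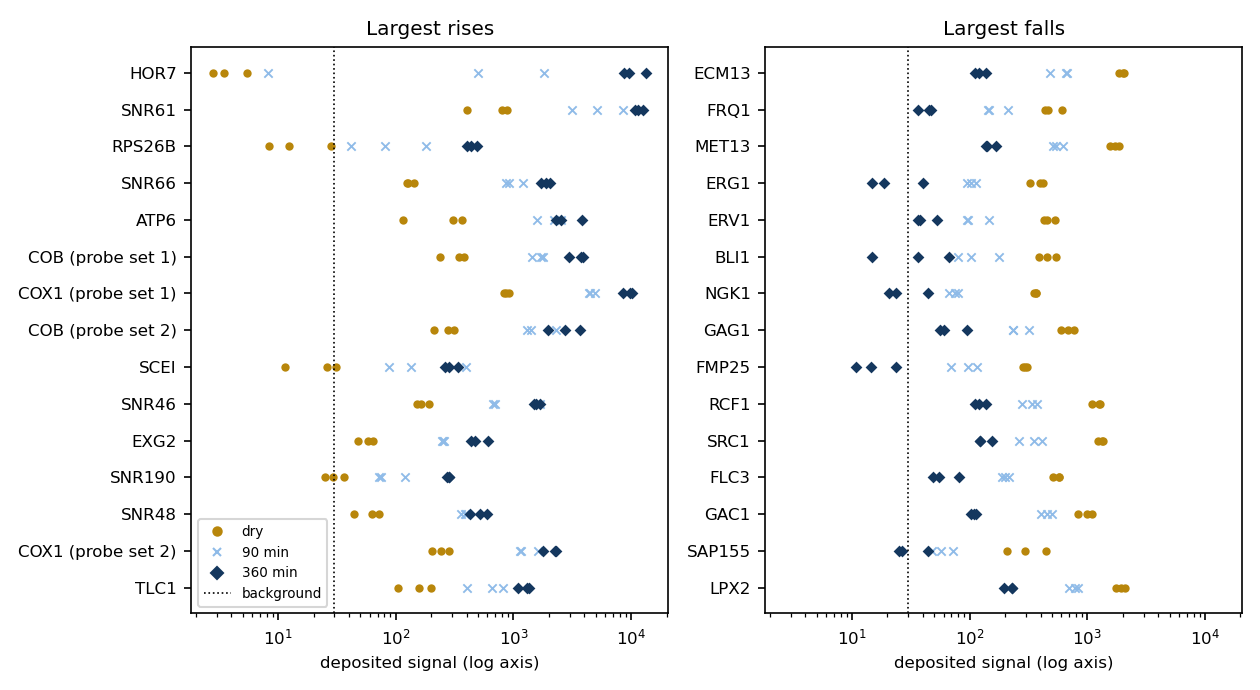
Deposited signal per array on a log axis for the 15 largest rises (left) and 15 largest falls (right) among uniquely named probe sets, with dry arrays as circles, 90 min as crosses, 360 min as diamonds and the background of 29.6 as a dotted line (values under the floor of 2.8 are drawn at it). No 360 min array overlaps a dry array for any of the 30, a condition of their choice, and for SNR61 the dry arrays lie at 405, 877 and 793 and the 360 min arrays at 12541, 11509.5 and 10735.

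Transcripts of the mitochondrial chromosome rose together, in contrast to the nuclear transcripts for mitochondrial proteins. Of 28 probe sets for that chromosome 24 rose and 0 fell (median 2.40). All 9 protein genes of the fixed list rose, with a median of 2.53 (0.53 when scaled to the spike-ins, with 3 rising and 1 falling). COX1 (Q0045), the largest subunit of cytochrome c oxidase, read 924, 827 and 866 on the dry arrays and 10242, 9798 and 8535 at 360 min at one of its 3 probe sets, a change of 3.45 ± 0.09 (adjusted p = 3.61e-13). Its other probe sets changed by 3.13 and 1.65, the last being the brightest and turning to -0.35 when scaled to the spike-ins. COB (Q0105), cytochrome b, read 238, 343 and 380.2 when dry and 3784, 2941 and 3885 at 360 min, a change of 3.48 ± 0.17. ATP6 (Q0085), a subunit of the membrane part of ATP synthase, read 116, 305 and 369 and then 3824, 2519.7 and 2283, a change of 3.58 ± 0.40. Dry replicate 1 was low for ATP6, but no groups overlapped for these 3 genes. COX3 rose by 2.39 ± 0.22, ATP8 by 2.53 ± 0.25 at a probe set with a suffix, and OLI1, the ring subunit of ATP synthase, by 1.35 ± 0.25 at its brighter probe set (-0.66 when scaled to the spike-ins). COX2 was at background when dry and at least 2.58-fold higher at 360 min. VAR1, the ribosomal protein made inside mitochondria, at a probe set with a suffix read 14.9, 35.3 and 79.0 when dry and 364, 246 and 468 at 360 min, with a wide spread among the dry arrays. SCEI (Q0160), the endonuclease encoded in a mitochondrial intron, read 11.4, 31.3 and 26.2 and then 285, 262 and 338, a change of 3.80 ± 0.55. The list's median was 1.15 at 15 min, 1.22 at 45 min and 2.01 at 90 min, and 4 of the 9 rose further from 90 to 360 min. Its 9 probe sets held 0.13% to 0.17% of the signal of a dry array and 0.42% to 0.46% at 360 min.

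Nuclear-encoded subunits of respiratory complexes and ATP synthase fell in 28 of 36 cases and rose in 2, with a median of -1.23, and their median stayed below that of all probe sets in the 4 scalings (-1.19 with quantile normalization, -0.71 with median centring, -3.24 with the spike-ins). RIP1 (YEL024W), the Rieske iron-sulfur protein of complex III, read 3650.4, 3721 and 3491 when dry and 459, 426 and 439 at 360 min, a change of -3.04 ± 0.11 (adjusted p = 7.41e-12). COX5A (YNL052W), a nuclear subunit of cytochrome c oxidase, read 2166, 2309.7 and 2319 and then 359.9, 335 and 408, a change of -2.63 ± 0.10. The complex IV subunits on the 2 genomes thus had opposite signs, COX5A and COX6 (-2.26 ± 0.11) below the dry level and COX1 and COX3 above it. ATP3, of the catalytic part of ATP synthase, fell by 2.48 ± 0.11. The 2 that rose were also ATP synthase subunits, ATP1 (0.45 ± 0.11) and ATP4 (0.32 ± 0.10), which turned to -1.55 and -1.69 when scaled to the spike-ins. ATP4 did not pass without dry replicate 1 (adjusted p = 0.0651) or without 360 min replicate 3 (0.0652). From 90 to 360 min, 24 of the 36 fell and 0 rose.

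Other mitochondrial functions had medians below that of protein genes. Mitochondrial ribosomal proteins, encoded in the nucleus, fell in 49 of 70 cases and rose in 1 (70% fell, median -0.84), and with quantile normalization 30 fell and 7 rose (median -0.36). MRPL16, of the large subunit, read 399, 365 and 468 when dry and 93.4, 112 and 92.7 at 360 min, a change of -2.05 ± 0.11, and MRP10 changed by -1.96 ± 0.14. Genes of the tricarboxylic acid cycle fell in 9 of 16 cases and rose in 1 (median -0.98). The share that fell, 56.25%, was close to the 53.9% of protein genes. Among the falls were aconitase ACO1 (-1.55 ± 0.12), KGD2 of 2-oxoglutarate dehydrogenase (-1.62 ± 0.12) and SDH2 of succinate dehydrogenase (-1.59 ± 0.12). 3 of the 15 largest falls were genes for building respiratory complexes or the intermembrane space. RCF1 (YML030W), which joins respiratory supercomplexes, read 1088, 1275 and 1255 when dry and 137, 119.8 and 111 at 360 min, a change of -3.30 ± 0.11. ERV1 (YGR029W), the sulfhydryl oxidase of protein import, read 450.3, 429 and 534 and then 37.8, 36.5 and 52.7, a change of -3.49 ± 0.21. Its other probe sets fell less, by -1.49 at one and by -0.81 at one with a suffix. FMP25 (YLR077W), needed for complex III assembly, read 298, 281 and 305 when dry and was at background at 360 min, at least 9.93-fold lower.

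The other large falls among uniquely named genes belong to varied functions. ECM13 (YBL043W), whose function is not known, read 2050.4, 1850.1 and 1999.7 on the dry arrays and 137, 109.9 and 119.7 at 360 min, a change of -4.01 ± 0.13 (adjusted p = 3.83e-12). FRQ1 (YDR373W), which activates a phosphatidylinositol kinase, read 439.9, 462 and 612 when dry and 47.0, 36.5 and 44.8 at 360 min, a change of -3.55 ± 0.21. SRC1 (YML034W), a protein of the inner nuclear membrane, read 1219, 1349 and 1331 and then 155, 121 and 123, a change of -3.30 ± 0.13 (-1.61 at its other probe set). All 3 were spread narrowly within each group and far apart between groups. NGK1 (YLR446W), a kinase of the sugar N-acetylglucosamine, fell by 3.69 ± 0.19, BLI1, of a complex in endosomes, by 3.80 ± 0.41, FLC3, a membrane protein linked to FAD transport, by 3.20 ± 0.16, and SAP155, a partner of the phosphatase Sit4, by 3.28 ± 0.33. Other probe sets fell less, those of FLC3 changing by -1.73 to -2.90 and that of SAP155 by -1.83. GAG1 and LPX2 fell by 3.31 ± 0.18 and 3.14 ± 0.12.

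Genes for cytosolic ribosomal proteins rose late. Of the 81 measured of 138 listed, 58 rose and 3 fell, with a median of 1.14, which turned to -0.87 (5 rising, 50 falling) when scaled to the spike-ins, above the -2.30 of all probe sets. A suffix for possible cross-hybridization marks 32 of the 81, and of the 49 without one 39 rose and 2 fell (median 1.24). RPS2 (YGL123W) read 1500.2, 1693 and 1629 on the dry arrays and 7775, 8001 and 7468 at 360 min, a change of 2.27 ± 0.10 (adjusted p = 5.7e-11). RPL3 (YOR063W) read 383, 269 and 319 and then 1481, 1435 and 1446, a change of 2.18 ± 0.11. RPS26B (YER131W) was at background when dry, at 12.4, 8.3 and 27.9, and read 488, 401 and 439 at 360 min, at least 14.9-fold higher. In all 3 genes the 360 min arrays lay close together and far above the dry arrays. RPL31B and RPS22B, whose probe sets may cross-hybridize with a near-identical copy, rose by 2.61 ± 0.10 and 3.78 ± 0.14. The 3 that fell were RPS14B (-0.96 ± 0.15), RPS27A (-0.82 ± 0.09) and RPS25B (-0.47 ± 0.14, 0.05 with median centring), each of which belongs to a pair of near-identical genes. The list's median was -0.50 at 15 min, -0.19 at 45 min and -0.05 at 90 min. Between 90 and 360 min 69 of the 81 rose and 0 fell, against 15.4% rising (1429) and 22% falling (2042) over all probe sets. The 81 probe sets held 0.75% to 0.93% of the signal of a dry array, 0.84% to 0.89% at 90 min and 1.61% to 1.63% at 360 min, and 5.22% to 5.49% in the control before drying.

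The machinery that uses and builds ribosomes was divided. Cytosolic tRNA synthetases, which charge transfer RNAs with amino acids, rose in 12 of 18 cases and fell in 4 (median 0.50, but -1.51 when scaled to the spike-ins). DED81, the asparaginyl enzyme, read 98.8, 145 and 136 when dry and 663, 687 and 669 at 360 min, a change of 2.43 ± 0.15, and KRS1, the lysyl enzyme, changed by 1.72 ± 0.17 (-0.29 when scaled to the spike-ins), while GLN4, the glutaminyl enzyme, fell by 0.90 ± 0.13. Among translation factors 5 of 31 rose and 17 fell (54.8%, median -0.44, 0.08 with median centring), shares close to those of all protein genes. Both elongation factors named by rule, TEF4 (206, 171 and 279 when dry and 1405, 1485 and 1462 at 360 min, 2.76 ± 0.15) and YEF3 (2.13 ± 0.14), rose, and TIF35, of initiation factor eIF3, fell by 1.87 ± 0.15. Ribosome biogenesis factors fell in 79 of 137 cases and rose in 10 (57.7% fell, median -0.58), again close to protein genes as a whole, and the balance depended on the scaling: with quantile normalization 25 rose and 43 fell, and with median centring 32 rose and 33 fell (median -0.06). TIF6, which keeps immature large subunits from joining, read 1597, 1487 and 1419.8 when dry and 288, 320.1 and 324 at 360 min, a change of -2.27 ± 0.10, and NOP16, RRS1 and LOC1 changed by -2.55 ± 0.17, -2.59 ± 0.17 and -1.84 ± 0.12. Of the 8 core proteins of snoRNA particles, a set singled out after its values were seen, 7 were measured here and all 7 rose. GAR1, NHP2 and CBF5, of the H/ACA particles, changed by 1.66 ± 0.19, 1.56 ± 0.11 and 0.29 ± 0.12 (-0.34, -0.45 and -1.72 when scaled to the spike-ins), and CBF5 did not pass when any one of 5 arrays was left out (adjusted p up to 0.134). NOP58, at a probe set with a suffix, NOP56, SNU13 and NOP1, of the C/D particles, changed by 2.61 ± 0.30, 1.14 ± 0.24, 1.06 ± 0.14 and 0.70 ± 0.17 (the last 3 by -0.87, -0.95 and -1.31 when scaled to the spike-ins). NOP58 read 98.4, 94.7 and 81.2 when dry and 541, 531 and 603 at 360 min, while in the control it read 5081, 4888 and 5261. For RNA polymerases I and III, 2 of 19 subunits rose and 9 fell (median -0.30, 0.22 with median centring), with RPA34 at 0.85 ± 0.10 (-1.16 when scaled to the spike-ins) and RPO31, the largest subunit of polymerase III, at -2.42 ± 0.17. The polymerase I factor RRN3 fell by 2.12 ± 0.09 and MAF1, the repressor of polymerase III, fell by 2.11 ± 0.13.

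**Figure D3:**
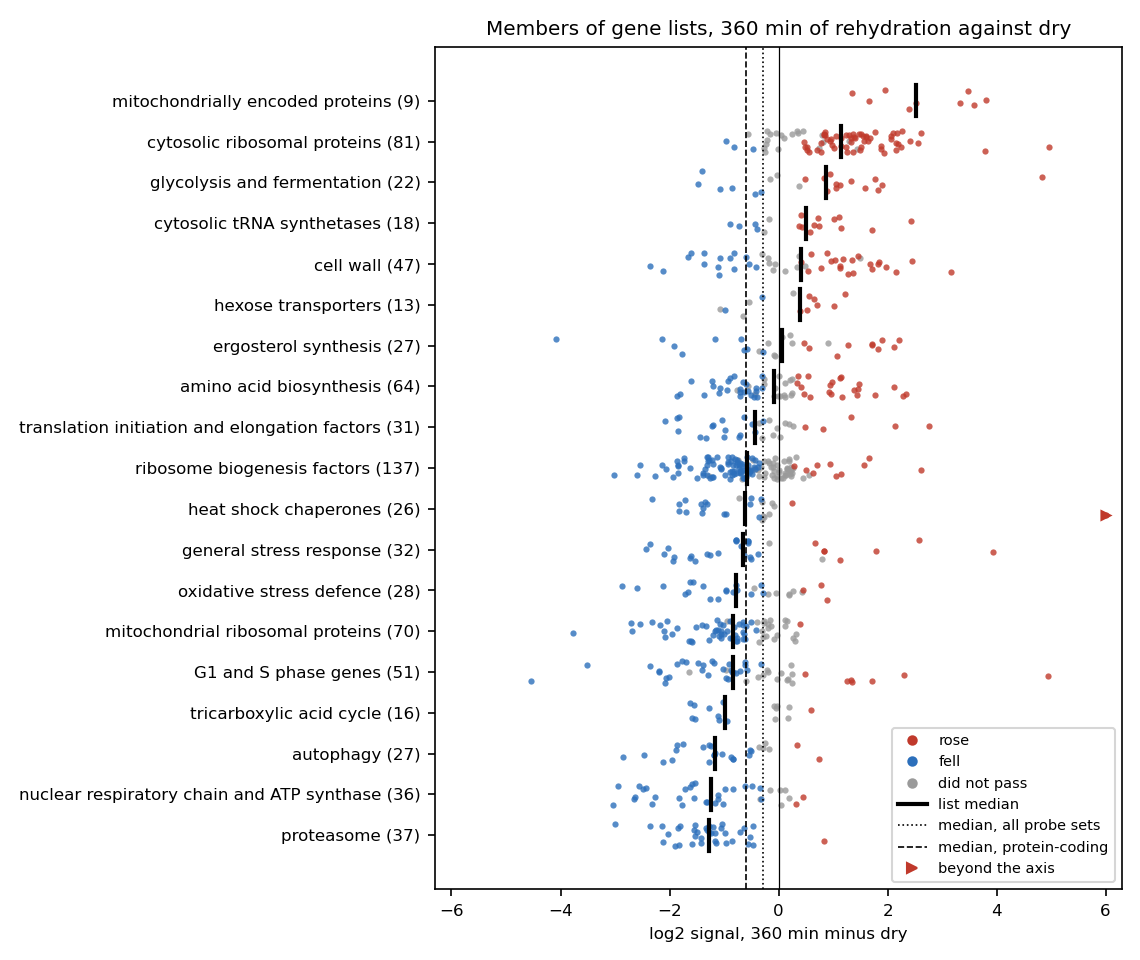
Log2 change, 360 min minus dry, of each measured member of 19 gene lists (1 point per gene; red rose, blue fell, grey did not pass), with each list's median as a bar the median of all probe sets (-0.29) dotted and that of protein-coding probe sets (-0.59) dashed. The proteasome (-1.27), nuclear respiratory chain (-1.23) and autophagy (-1.16) medians lie lowest and fall in every scaling tried, while the mitochondrially encoded proteins (2.53) and cytosolic ribosomal proteins (1.14) lie highest, the latter turning to -0.87 when scaled to the spike-ins.

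The proteasome fell almost as a block. Proteasome genes fell in 36 of 37 cases and rose in 1, with a median of -1.27 (-1.04 with quantile normalization, -0.74 with median centring, -3.27 with the spike-ins), and 30 to 37 of the 37 fell in the 4 scalings. RPN12 (YFR052W), of the regulatory cap, read 912, 941 and 1063 when dry and 138, 101 and 128 at 360 min, a change of -3.0 ± 0.11 (adjusted p = 1.08e-11). PUP3 (YER094C), of the core, read 3292, 3442 and 3038 and then 785, 734 and 724, a change of -2.12 ± 0.11. RPN9 and PRE4 changed by -2.36 ± 0.10 and -2.03 ± 0.09. In all 4 the highest 360 min array was below the lowest dry array. The member that rose was BLM10 (YFL007W), an alternative activator that binds the core in place of the cap: it read 3287, 3402 and 3180.2 when dry, 4657, 4291 and 4367 at 90 min and 5698, 6255 and 5586 at 360 min, a change of 0.83 ± 0.09 (-1.18 when scaled to the spike-ins). From 90 to 360 min 26 proteasome genes fell and 1 rose. Their probe sets held 0.97% to 1.06% of the signal of a dry array and 0.42% to 0.43% at 360 min.

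Autophagy genes fell in 21 of 27 cases and rose in 2 (median -1.16). ATG3 (YNR007C), the enzyme that joins Atg8 to lipid, read 1467, 1402 and 1438 when dry and 169, 222 and 209 at 360 min, a change of -2.85 ± 0.10. ATG1 (YGL180W), the kinase that starts autophagy, read 1657, 2202 and 2100.0 and then 436, 419.8 and 509, a change of -2.12 ± 0.13, and ATG19, a receptor for vacuolar enzymes, changed by -1.95 ± 0.12. The 2 that rose were ATG18, which binds membrane lipid (0.75 ± 0.13, -1.26 when scaled to the spike-ins), and ATG8, the protein that coats forming autophagosomes (0.33 ± 0.13, -0.67 with quantile normalization and -1.68 with the spike-ins). ATG8 did not pass when any one of 4 arrays was left out: without dry replicate 2 the adjusted p was 0.0788, without dry replicate 3 it was 0.216 (change 0.19), and without 360 min replicates 1 or 2 it was 0.114 and 0.0819. Vacuolar proteases and their inhibitors rose in 3 of 12 cases and fell in 7 (58.3% fell, close to the 53.9% of protein genes; median -0.56).

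In the deposited scale stress genes fell for the most part, with some of the brightest going the other way. Of 32 general stress response genes 23 fell (71.9%) and 7 rose (median -0.66). With median centring 13 fell and 9 rose (median -0.14, against -0.07 for protein genes). With quantile normalization 21 fell and 3 rose (median -0.80). HSP104 (YLL026W), which pulls apart protein aggregates, read 2369, 2110.3 and 1891 when dry and 565, 617 and 623 at 360 min. Its change was -1.82 ± 0.13 (adjusted p = 5.51e-09). XBP1 (YIL101C), a repressor made under stress, read 3999, 3807 and 3516 and then 1121, 863 and 982, a change of -1.94 ± 0.10, after 0.33 at 90 min. RTN2 and PNC1, the nicotinamidase, changed by -2.36 ± 0.13 and -1.54 ± 0.08, and HSP30, a plasma membrane protein, by -2.02 ± 0.10. In these 5 genes the groups did not overlap. HSP12 (YFL014W), a small protein that protects membranes, went the other way: it read 2999, 3168 and 1867 when dry and 14038, 14778 and 17961 at 360 min, a change of 2.57 ± 0.24 (adjusted p = 9.61e-08). DDR48 changed by 1.79 ± 0.20 (-0.22 when scaled to the spike-ins). HSP26, a small heat shock protein, changed by -0.50 ± 0.09 (0.02 with median centring), the cytosolic catalase CTT1 by -0.79 ± 0.20. DDR2 read 3251, 3172 and 4.7 when dry and 5552, 5582 and 5624 at 360 min, so dry replicate 3 decides its fitted change: it was 3.94 ± 1.60 with that array and 0.80 without it, and it did not pass without any one of the 360 min arrays (adjusted p 0.0814 to 0.082).

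Some bright genes are listed at or near 0 on dry arrays, where a value can be a failed estimate, so no fold is given for them. HOR7 (YMR251W-A), a gene induced by osmotic stress, is listed at 5.4, 3.5 and 0 when dry, at 1804, 8.2 and 498 at 90 min and at 9598, 8759.9 and 13489.8 at 360 min. SSA1, a cytosolic Hsp70, is listed at 0 on the 3 dry arrays and at 6571, 6462 and 7513 at 360 min by a probe set with a suffix. TDH3, the main glyceraldehyde-3-phosphate dehydrogenase, is listed at 1215, 105 and 159 when dry and at 6426, 7081 and 10548 at 360 min, and did not pass without dry replicates 2 or 3 or 360 min replicate 3 (adjusted p 0.0534 to 0.0758). HOR7 and SSA1 were near 0 on all 3 dry arrays and bright on all 3 at 360 min, while HOR7 at 90 min and TDH3 in the dry state differed widely between arrays of one group.

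Hydrophilins, small water-loving proteins linked to survival of drying, did not move together. Of 5, 2 rose and 1 fell (median 0.46, -0.28 with quantile normalization and -1.55 with the spike-ins). SIP18 (YMR175W) read 4919, 4486 and 3485 when dry and 6156, 5711 and 5714 at 360 min, a change of 0.46 ± 0.19 (adjusted p = 0.0447) that turned to -0.28 with quantile normalization and did not pass when any one of 5 arrays was left out (adjusted p 0.0622 to 0.196). GRE1 (YPL223C) read 6065, 6215 and 3280.0 and then 6917, 7618 and 6748, a difference of 0.51 ± 0.22 that did not pass (adjusted p = 0.0539). Scaled to the spike-ins, GRE1 passed with the opposite sign (-1.50, adjusted p = 8.3e-06). Dry replicate 3 was the lowest dry array for both, and the difference of GRE1 was 0.21 without it (adjusted p = 0.349), against 0.65 (0.0289) without dry replicate 1 and 0.67 (0.0236) without dry replicate 2, where it passed. STF2 fell, from 4597, 3273 and 4613 when dry to 1651, 1633 and 1636 at 360 min (-1.33 ± 0.12). Of the trehalose genes, whose sugar protects dry cells, 4 of 7 fell and 1 rose (57.1% fell, close to the 53.9% of protein genes; median -0.48, 0.04 with median centring). TPS2, the trehalose phosphatase, fell by 1.54 ± 0.18, and the trehalases NTH2 and ATH1, which break the sugar down, fell by 0.97 ± 0.09 and 0.86 ± 0.08. A further trehalase, NTH1, was the member that rose, from 2576, 2971 and 2810 when dry to 3998, 3965 and 4302 at 360 min (0.56 ± 0.13). Scaled to the spike-ins, all 7 trehalose genes fell. The synthase TPS1 read 3751, 3883 and 3584 when dry and 3608, 3912 and 3688 at 360 min, and TSL1, a regulatory subunit, changed by -0.48 ± 0.09 (0.04 with median centring). For glycogen, the phosphorylase GPH1, which releases glucose from it, rose from 545, 550.0 and 554 to 2012, 1791 and 1986 (1.81 ± 0.16, -0.20 when scaled to the spike-ins). GLG1, which starts the polymer, fell by 1.08 ± 0.09, and GAC1 (YOR178C), which directs a phosphatase to glycogen synthase, read 1092, 997 and 836 when dry and 102, 109 and 113 at 360 min, a change of -3.17 ± 0.10.

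Chaperones and redox defence fell somewhat more often than protein genes as a whole, a difference that was not tested. Heat shock chaperones fell in 16 of 26 cases and rose in 2 (61.5% fell, median -0.62), among the falls the Hsp40 SIS1 (-2.33 ± 0.18), mitochondrial HSP78 (-1.83 ± 0.11) and SSE2 (-1.40 ± 0.08). Of the 8 subunits of the CCT chaperonin, which folds actin and tubulin, 7 fell and 0 rose, CCT3 by 1.54 ± 0.10. Oxidative stress genes fell in 18 of 28 cases and rose in 3 (64.3% fell, median -0.78). The glutaredoxin GRX2 read 2147, 1776 and 2443 when dry and 334, 388 and 325 at 360 min, a change of -2.60 ± 0.12, and the thioredoxin TRX1 and mitochondrial peroxiredoxin PRX1 changed by -2.12 ± 0.14 and -1.63 ± 0.10.

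Carbon metabolism split by pathway. Genes of glycolysis and fermentation rose in 13 of 22 cases and fell in 6 (median 0.87), a direction that turned to -0.19 with quantile normalization (7 rising, 6 falling) and -1.14 with the spike-ins (0 rising, 17 falling). TDH1, a glyceraldehyde-3-phosphate dehydrogenase, read 1779, 1936 and 2109 when dry and 7018, 7749 and 6934 at 360 min, a change of 1.90 ± 0.10 (-0.11 when scaled to the spike-ins). PDC1, the pyruvate decarboxylase of fermentation, and GPM1, the phosphoglycerate mutase, changed by 1.33 ± 0.09 and 1.05 ± 0.08 (-0.68 and -0.96 when scaled to the spike-ins). Both subunits of phosphofructokinase, a controlled step of glycolysis, were below the dry level: PFK2 read 2699.7, 2754 and 2347 when dry and 943, 1012 and 852 at 360 min, a change of -1.48 ± 0.13, and PFK1 changed by -0.86 ± 0.13. The glucose-phosphorylating enzymes HXK1 and GLK1 rose by 0.84 ± 0.07 and 1.13 ± 0.16 (-1.16 and -0.87 when scaled to the spike-ins). Of 13 genes in the hexose transporter list 7 rose and 2 fell (median 0.39, -1.61 with the spike-ins). The 2 that fell were the glucose sensors SNF3 and RGT2, and with median centring 1 fell. HXT6 and HXT7, among the rises, were at probe sets with a suffix for possible cross-hybridization. HXT2 rose by 1.22 ± 0.10 (-0.79 with the spike-ins) and HXT5 by 1.02 ± 0.14 (-0.06 with quantile normalization, -0.98 with the spike-ins).

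Genes for the use of small carbon compounds had a direction that depended on the scaling. Of 17 genes of gluconeogenesis and the glyoxylate cycle 4 rose and 5 fell (median -0.12), while with quantile normalization 0 rose and 7 fell (-0.30) and with median centring 12 rose and 0 fell (0.40). PCK1 (YKR097W), which makes phosphoenolpyruvate for glucose synthesis, read 6650.1, 5383 and 3889 when dry and 12633, 13734 and 16911 at 360 min, a change of 1.47 ± 0.17 (adjusted p = 1.57e-06, -0.54 when scaled to the spike-ins). Its highest dry array was well below its lowest 360 min array. The isocitrate lyase ICL1 went the other way, from 5250.2, 5483 and 4315 when dry to 3302, 3234 and 3072 at 360 min (-0.64 ± 0.10), and fructose bisphosphatase FBP1 did not pass (-0.16 ± 0.13, adjusted p = 0.294). The peroxisomal citrate synthase CIT2 rose by 0.85 ± 0.08 (-0.10 with quantile normalization, -1.16 with the spike-ins). Fatty acid oxidation and peroxisome genes fell in 19 of 36 cases and rose in 6 (52.8% fell, close to protein genes as a whole; median -0.52, 0.01 with median centring), the import factors PEX13 and PEX18 by 2.19 ± 0.10 and 1.88 ± 0.13 and the enzymes FAA2 and TES1 by 1.43 ± 0.11 and 1.06 ± 0.08. In the pentose phosphate pathway 5 of 13 rose and 5 fell (median -0.17, 0.35 with median centring): TKL1, a transketolase, rose from 88.4, 77.9 and 79.3 to 442, 372 and 378 (2.28 ± 0.13) and SOL3 by 2.24 ± 0.14, while SOL1 and SOL4 fell by 1.76 ± 0.14 and 1.32 ± 0.12.

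Biosynthetic pathways split within themselves. Amino acid synthesis genes rose in 21 of 64 cases and fell in 26 (median -0.08), a balance that turned with quantile normalization (22 rising, 13 falling, median 0.10) and with median centring (29 rising, 8 falling, 0.44). HIS1, the first enzyme of histidine synthesis, read 63.1, 65.6 and 61.4 when dry and 289, 373 and 298 at 360 min, a change of 2.33 ± 0.15, and ARO1, of the aromatic pathway, changed by 1.45 ± 0.12 (-0.56 when scaled to the spike-ins), while ARO3 of the same pathway fell by 1.86 ± 0.10 and ILV2, of branched-chain synthesis, by 1.80 ± 0.15. Sulfate assimilation and methionine genes fell in 16 of 30 cases and rose in 5 (53.3% fell, close to protein genes as a whole; median -0.54), and with median centring 11 rose and 7 fell (median -0.02). MET13 (YGL125W), which supplies the methyl group of methionine, read 1568, 1862 and 1701 when dry and 166, 137 and 141 at 360 min, a change of -3.53 ± 0.10 (adjusted p = 8.41e-13), and the methionine synthase MET6 fell by 1.56 ± 0.14, whereas SAH1, which clears the by-product of methylation, rose by 2.0 ± 0.14 (-0.01 when scaled to the spike-ins). Purine genes rose in 9 of 22 cases and fell in 8 (median 0.06, -1.95 with the spike-ins), with GUA1 at 2.31 ± 0.16 and ADE2 at -1.52 ± 0.13, and pyrimidine genes rose in 4 of 18 and fell in 9 (median -0.45, 0.07 with median centring), with URA5 at 1.98 ± 0.08 (-0.03 when scaled to the spike-ins) and the ribonucleotide reductase subunit RNR4 at -1.67 ± 0.10.

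Sterol and cell wall genes moved in both directions. In ergosterol synthesis 10 of 27 rose and 9 fell (median 0.07, -1.93 with the spike-ins). ERG6, a late methylating enzyme, read 148, 139 and 144 when dry and 602, 595 and 661 at 360 min, a change of 2.11 ± 0.11, and ERG3 and MVD1 changed by 1.83 ± 0.12 and 1.72 ± 0.11 (-0.18 and -0.29 when scaled to the spike-ins). ERG1 (YGR175C), the squalene epoxidase, went from 326, 395 and 420.3 when dry to 40.0, 18.7 and 14.8 at 360 min, a change of -4.09 ± 0.28, the largest fall in the list. Cell wall genes rose in 22 of 47 cases and fell in 15 (median 0.42, -1.59 with the spike-ins). EXG2 (YDR261C), a glucanase anchored at the cell surface, read 63.7, 48.2 and 57.9 when dry and 439, 609.5 and 472 at 360 min, a change of 3.16 ± 0.13, and SCW4, a related wall protein, changed by 1.82 ± 0.11 (-0.18 when scaled to the spike-ins). PIR3, a wall protein with internal repeats, fell from 1592, 1591 and 1595 to 302, 250.3 and 391 (-2.36 ± 0.14), and SKN1, of glucan synthesis, by 2.12 ± 0.13.

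Cell cycle genes moved in both directions, in shares not far from those of protein genes as a whole for G1 and S phase. Of 51 genes of G1 and S phase 30 fell (58.8%) and 7 rose (13.7%), with a median of -0.84, and with median centring 18 fell and 15 rose (-0.32). The replication genes MCM4 and RFA1 fell by 1.78 ± 0.13 and 1.41 ± 0.10, and SWI4, the DNA-binding part of the factor that drives G1 cyclin transcription, read 159, 196 and 224 when dry and 41.5, 49.8 and 34.9 at 360 min, a change of -2.20 ± 0.16. CLN2 (YPL256C), a G1 cyclin, was at background when dry at 3.0, 2.7 and 5.0, still at background at 90 min at 8.5, 14.8 and 6.9, and read 102, 100.1 and 118 at 360 min, at least 3.59-fold higher. CLN3 (YAL040C) read 149.7, 153 and 138 when dry and 353, 379.6 and 389 at 360 min, a change of 1.35 ± 0.11 (-0.66 when scaled to the spike-ins), and CLN1 changed by 1.32 ± 0.20 (-0.69 when scaled to the spike-ins). The groups did not overlap for any of these cyclins. G2 and M phase genes rose in 7 of 32 cases and fell in 12 (37.5%, against 53.9% of protein genes; median -0.19, 0.20 with quantile normalization and 0.34 with median centring, where 13 rose and 7 fell), with the alpha-tubulin TUB3 at 2.25 ± 0.15 and the spindle motor CIN8 at -2.0 ± 0.15. The 2 copies of histone H2B had opposite signs: HTB1 read 2768, 2266 and 3073 when dry and 803, 641 and 821 at 360 min (-1.84 ± 0.12), and HTB2 246, 199.9 and 294 and then 662, 634 and 764 (1.49 ± 0.12, -0.52 when scaled to the spike-ins).

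**Figure D4:**
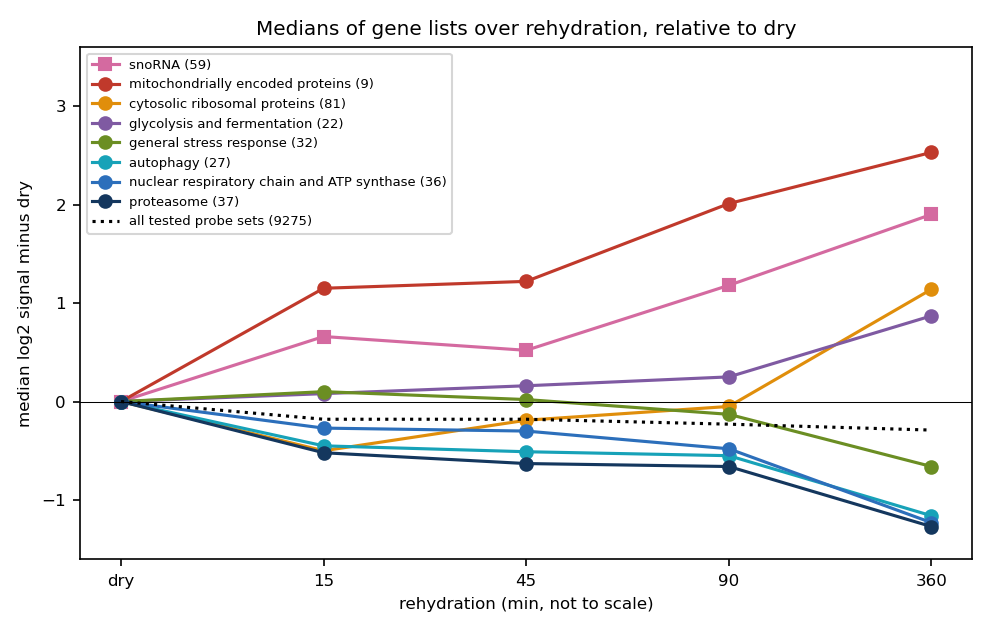
Median log2 signal relative to dry of 8 groups and of all tested probe sets (dotted) over rehydration (min, positions not to scale); all points share the 3 dry arrays. Cytosolic ribosomal proteins moved from -0.05 at 90 min to 1.14 at 360 min (-0.87 at 360 min when scaled to the spike-ins), while the proteasome went from -0.66 to -1.27.

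The last interval, from 90 to 360 min, held much of the change in several groups. Between these time points 3471 probe sets changed (37.4%), 1429 rising and 2042 falling, with a median of -0.02 over all probe sets. This comparison shares the 360 min arrays with the one above, and for the groups named here the values stand side by side. General stress genes had a median of -0.13 at 90 min and -0.66 at 360 min, and 18 of the 32 fell in the interval while 5 rose. Glycolysis went from 0.25 to 0.87, with 10 of 22 rising and 3 falling. Proteasome, autophagy and nuclear respiratory medians were at -0.66, -0.55 and -0.48 at 90 min and at -1.27, -1.16 and -1.23 at 360 min. COX5A changed by -0.55 from dry to 90 min and by -2.08 from 90 to 360 min, and SDH2 by -0.04 and then -1.55. The secreted acid phosphatase PHO5 changed by 1.72 in the interval, and the cyclin CLN2, at background at 90 min as in the dry state, has the same lower bound from either. Others did not pass in the interval: TRX1 (0.09), SWI4 (0.12), HXT2 (0.05) and GLN4 (-0.02). Of the 3 arrays at 90 min, 2 were scanned on the same day as the 360 min arrays, and without the other one 3130 probe sets changed.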

How the data were processed

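Total RNA of 7 time points, 3 samples each, was hybridized to Affymetrix YG_S98 arrays. The deposited table holds intensities, 1 linear signal per probe set and array, which per the labels came from GeneChip analysis software, with a Wilcoxon signed-rank test named as part of it. Per the labels' protocols a 2-step linear mixed model was also used, and the sources used here do not say whether the deposited signals precede it. The authors' scale (2% trimmed mean 500.2 to 500.6) was kept. Samples were grouped by their titles.

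Of 9335 probe sets 60 chip controls were set aside. Signals under 2.8, the 5th percentile of positive values, were raised to it (4.86% of values), and 88 values were at or under 0. The log2 values of all 21 arrays were fitted with limma 3.58.1 in R 4.3.3, with a mean for each time point, with variances moderated by eBayes (degrees of freedom 14 residual and 1.53 prior). The number of arrays limits the precision. Background came from 19 chip controls with no target in the sample (mouse and unspiked bacterial genes), at their 95th percentile. The fit was also run on simulated arrays with known changes and independent Gaussian noise. Signs were checked only for the changes that the fit called, and these were recovered. The simulation did not imitate values near 0 on single arrays or shifts of scale between arrays.

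Names come from the platform annotation, updated through RefSeq's R64 table: 6504 probe sets have 1 gene, 328 several and 2443 none. Lists use each gene's brightest probe set. Named genes are the 15 largest rises and 15 largest falls among probe sets with 1 standard name, no cross-hybridization suffix, groups that do not overlap and an adjusted p under 0.05, up to 4 members of each list by smallest adjusted p, strain and stress genes fixed by name, and members that went against their list. RNA classes, SSA1, DDR2, TDH3 and the split members were chosen after their values were seen. The comparison, the gene lists and the rules were chosen with earlier results of these data known. Tables and figures were made with Python 3.11.15, pandas 2.3.3, numpy 2.4.6 and matplotlib 3.10.9. Alternatives were 3 other scalings, other floors and offsets, a filter on dim probe sets, a fit of the 6 arrays alone, an intensity trend, a replicate block, a 2-fold limit and leaving out each array. Promoter and protein sequences were not used here.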

Additional observations from a re-analysis of the deposited data

How the results depend on the processing

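Scaling bears most on these results, since every array was scaled by the authors to one trimmed mean and the spike-in controls were 2.01 (log2) higher at 360 min than in the dry state; which scale is nearest to RNA per cell was not tested. Requiring a 2-fold change left 3520 probe sets, 1266 higher and 2254 lower. Median centring gave 3370 higher and 2251 lower, and spike-in scaling 66 higher and 7993 lower. With quantile normalization the list medians that changed sign were glycolysis and fermentation at -0.19, hydrophilins at -0.28, amino acid synthesis at 0.10, heme synthesis and hypoxic genes at 0.13, G2 and M phase genes at 0.20, and the genes SIP18 at -0.28, CIT2 at -0.10, HXT5 at -0.06, ATG8 at -0.67. With median centring these were RNA polymerase I and III subunits at 0.22, translation factors at 0.08, glyoxylate cycle and gluconeogenesis at 0.40, fatty acid oxidation at 0.01, trehalose at 0.04, endoplasmic reticulum folding at 0.17, amino acid synthesis at 0.44, heme synthesis and hypoxic genes at 0.50, meiosis and sporulation at 0.04, haploid and mating genes at 0.47, pentose phosphate pathway at 0.35, glycogen metabolism at 0.17, nitrogen catabolite repressed genes at 0.22, pyrimidine synthesis at 0.07, fatty acid and phospholipid synthesis at 0.24, G2 and M phase genes at 0.34, iron and copper uptake at 0.24, glycerol and osmotic balance at 0.08, and the genes HSP26 at 0.02, TSL1 at 0.04, RPS25B at 0.05. With spike-in scaling these were cytosolic ribosomal proteins at -0.87, cytosolic tRNA synthetases at -1.51, glycolysis and fermentation at -1.14, hexose transporters at -1.61, hydrophilins at -1.55, purine synthesis at -1.95, ergosterol synthesis at -1.93, cell wall at -1.59, and the genes ACT1 at -1.43, HIS3 at -1.06, SIP18 at -1.55, PCK1 at -0.54, RPA34 at -1.16, KRS1 at -0.29, CIT2 at -1.16, TDH1 at -0.11, PDC1 at -0.68, HXK1 at -1.16, GPM1 at -0.96, HXT2 at -0.79, HXT5 at -0.98, GPH1 at -0.20, PUT1 at -0.38, GAT1 at -0.64, ARO1 at -0.56, SAH1 at -0.01, URA5 at -0.03, MVD1 at -0.29, ERG3 at -0.18, SCW4 at -0.18, HTB2 at -0.52, PHO5 at -0.67, SGA1 at -0.45, SPS100 at -0.61, COX1 at -0.35, NOP1 at -1.31, NOP56 at -0.87, GAR1 at -0.34, NHP2 at -0.45, ATP1 at -1.55, ATP4 at -1.69, GLK1 at -0.87, DDR48 at -0.22, BLM10 at -1.18, ATG8 at -1.68, ATG18 at -1.26, CLN1 at -0.69, CLN3 at -0.66, OLI1 at -0.66, RPR1 at -0.05, SNR6 at -0.76. With spike-in scaling SNU13 at -0.95, CBF5 at -1.72 and the medians of snoRNAs at -0.11 and transfer RNAs at -0.86 also changed sign. Median centring and spike-in scaling shift every probe set of an array by 1 amount, which is the cause of their reversals. For quantile normalization the cause was not tested. URA3, at background on all 6 arrays, and COX2, at background when dry, have fitted values of -1.18 and -0.06 with spike-in scaling, which show no sign.

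Calls were also lost without a change of sign: with quantile normalization those of ACT1, CTT1, PCK1, RPS25B, ATP1, GLK1, DDR2, BLM10 and OLI1, with median centring those of LEU2, CTT1, ICL1 and PFK1, and with spike-in scaling those of RPS2, RPL3, YEF3, DED81, TKL1, SOL3, HIS1, GUA1, ERG6, TUB3, COX3, ATP8, NOP58, TDH3, DDR2, VAR1, SNR14 and SNR19. In a fit of the 6 arrays alone URA3, LEU2, RPS25B, ATP4, DDR2 and ATG8 did not pass, and with the floor at the 20th percentile URA3 and LEU2 did not. GRE1 passed in 7 alternatives that kept its sign, and with spike-in scaling it passed with the opposite sign (-1.50). TPS1 and FBP1 passed in some scalings, with a sign that depended on the scaling. TPS1 was at -0.48 with quantile normalization, 0.52 with median centring and -2.01 with spike-in scaling. FBP1 was at 0.36 with median centring and -2.17 with spike-in scaling. Of the named probe sets, none reversed under the floors, offsets, filters, blocks and array sets tried. Leaving out 1 array gave 5336 to 5479 changed probe sets, 1801 to 1855 higher and 3498 to 3631 lower, and for 360 min against 90 min 3083 to 3197, with 1213 to 1303 higher and 1827 to 1902 lower; the calls lost are those named for SIP18, ATG8, ATP4, CBF5, TDH3 and DDR2. Small list counts moved by over 1.5 times without 1 array: among them, G2 and M phase rises went from 7 to 4 without dry replicate 1 or 2, pentose phosphate falls from 5 to 3 without dry replicate 3, cytosolic ribosomal falls from 3 to 5 without dry replicate 2, hexose transporter falls from 2 to 4 without 360 min replicate 3, mitochondrial ribosomal rises from 1 to 3 and nuclear respiratory rises from 2 to 1 without 360 min replicate 3 (the latter also without dry replicate 1), rises of polymerase I and III subunits from 2 to 1 without 360 min replicate 3 or dry replicate 3, heat shock chaperone rises from 2 to 1 without 360 min replicates 1 or 2 or dry replicates 1 or 3, and hydrophilin rises from 2 to 1 without any one 360 min array or dry replicate 3. Replicate numbers did not pair the samples, with correlations of same-numbered deviations from -0.02 to 0.04. With the replicate block 5728 probe sets changed against dry and 3405 against 90 min, and no named call changed. Signals near 0 on single arrays, such as those of HOR7, and the 1728 probe sets with a cross-hybridization suffix limit what single values show.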

Other observations

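Further gene groups had these values at 360 min against dry. Genes of secretion and its vesicle coats fell in 19 of 28 cases and rose in 1 (median -0.68). SEC4, the Rab protein of the last step of secretion, changed by -2.75 ± 0.15 and YPT1, the Rab protein of traffic from the endoplasmic reticulum to the Golgi, by -1.49 ± 0.08. Nuclear transport genes fell in 20 of 38 cases and rose in 5 (52.6% fell, close to the 53.9% of protein genes; median -0.68), with the exportin CRM1 at -2.38 ± 0.19. Of genes for glycerol and osmotic balance 8 of 15 fell and 4 rose, or 2 without dry replicate 3 (53.3% fell, close to protein genes as a whole; median -0.44, 0.08 with median centring). GPD1 and GPP1, which make glycerol, changed by -2.11 ± 0.16 and -2.43 ± 0.14, and STL1, which takes it up, by -2.02 ± 0.20. For phosphate, 11 of 19 fell and 4 rose (57.9% fell, close to protein genes as a whole; median -0.53): PHM8 changed by -2.58 ± 0.13 and PHO5 by 1.34 ± 0.11 (-0.67 with spike-in scaling). In endoplasmic reticulum folding 11 of 22 fell and 3 rose (50% fell, close to protein genes as a whole; median -0.35, 0.17 with median centring), in heme synthesis and hypoxic genes 6 of 19 fell and 4 rose (-0.02, 0.13 with quantile normalization and 0.50 with median centring), and in iron and copper uptake 12 of 29 fell and 3 rose (-0.28, 0.24 with median centring).

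Nitrogen-repressed genes fell in 13 of 28 cases and rose in 5, or 3 without 360 min replicate 2 or 3 or dry replicate 3 (median -0.31, 0.22 with median centring). PUT1, the first enzyme of proline use, rose by 1.63 ± 0.12 and GAT1, an activator of this gene set, by 1.37 ± 0.12 (-0.38 and -0.64 with spike-in scaling), while UGA2, of GABA use, and the arginine permease CAN1 changed by -2.21 ± 0.13 and -1.66 ± 0.14. Meiosis and sporulation genes fell in 10 of 30 cases and rose in 2, or 4 without 360 min replicate 2 (median -0.49, 0.04 with median centring), and 8 of the 30 were at background in both groups. IME1, the activator of meiotic entry, changed by -2.30 ± 0.17, and the sporulation genes that rose were SGA1, a glucoamylase, by 1.56 ± 0.12 and SPS100, a spore wall protein, by 1.39 ± 0.18 (-0.45 and -0.61 with spike-in scaling). Of 8 genes in common use as references for transcript levels 4 fell and 2 rose, or 1 without 360 min replicate 3 or dry replicate 2 or 3: UBC6 changed by -2.97 ± 0.16 and TAF10 by -1.19 ± 0.14.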
